A study of Mus musculus with 16 samples.

Results

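Tuft cells are rare chemosensory cells of the intestinal epithelium, and 10 genes that mark them were followed here in mouse terminal ileum: Dclk1, Trpm5, Pou2f3, Il25, Gnat3, Plcb2, Alox5, Hpgds, Sh2d6 and Avil. They were chosen by name, and 9 of the 10 were found among the 24940 genes counted, while the expression of Sh2d6 was not analysed here. Poly(A) RNA came from a short piece of ileum next to the cecum of 16 C57BL/6 mice, with 4 WT and 4 LKO animals of each sex (4 groups). All mice carried loxP-flanked Bcl6 (Bcl6fl/fl, called WT when alone), and the Bcl6LKO mice (LKO) also carried Albumin-Cre, which removes the transcriptional repressor BCL6 from hepatocytes and leaves the intestine undeleted. Animal age was not given in the sources used here, and the feeding state of these animals was not stated (fed or briefly fasted in general). The question was how much tuft cell RNA each ileum held, and whether it moved with hepatic Bcl6 loss or with sex.

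Tuft cells depend on the transcription factor POU2F3, sense luminal succinate and other compounds through a taste-like cascade that ends in the cation channel TRPM5, and release IL-25 and lipid mediators. IL-25 acts on innate lymphoid cells, whose IL-13 in turn signals through IL4RA in epithelial stem cells and raises the number of tuft cells. In whole ileum, fewer tuft cells and less RNA per tuft cell cannot be told apart.

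The gene counts of 15 libraries summed to between 15.7 and 20.5 M (M, mega), and those of female LKO replicate 1 to 60.3 M. Levels are in counts per M (CPM), with library sizes scaled by the trimmed mean of M-values. A gene with 0 counts could still be present at up to 3 counts, which is 0.0497 to 0.191 CPM depending on the library and covers counting error only. Markers of epithelium (9 genes) summed to between 12960 and 17780 CPM and those of ileal enterocytes (5 genes) to between 4230 and 7885 CPM, so markers of the labelled tissue were abundant in every library. In 4 libraries the summed level of 7 B cell markers exceeded 50 CPM: 101.7 CPM in male WT replicate 2, 60.5 CPM in female WT replicate 3, 171.6 CPM in female LKO replicate 2 and 326.4 CPM in female LKO replicate 3. In the other 12 libraries it lay between 14.3 and 25.8 CPM, and results that rest on these 4 are given with and without them. Bcl6 itself, which is intact in ileum by design and so checks nothing about the liver, averaged 15.9 ± 1.61 CPM in male WT, 18.9 ± 2.05 CPM in male LKO, 12.1 ± 2.92 CPM in female WT and 20.7 ± 5.03 CPM in female LKO (SD, n = 4 each). Over both sexes the LKO value exceeded the WT value by 0.51 on the log2 scale (SE 0.13), with an adjusted p of 0.121 by the edgeR quasi-likelihood test and 0.0117 by DESeq2. This Bcl6 difference is given only with the B-cell-rich libraries included, among them female LKO replicates 2 and 3.

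The octamer is the sequence that POU-domain factors such as POU2F3 bind. It was looked for in the RefSeq promoters (GRCm38.p6, from 250 bases before to 50 bases after the annotated start), because most of these genes varied together among the animals, as shown further on. The letters searched were ATGCAAAT on both strands, and their overlap with other motifs was not examined. Promoters of 8 of the 10 tuft genes were matched by symbol (all but Pou2f3 and Il25), and 1 of the 8, Hpgds, held the octamer (12.5%). The 8 include Sh2d6, whose expression was not analysed. Of 31 further tuft-associated genes matched from the wider lists described below, 6 held it (19.4%): 1810046K07Rik, Itpr3, Sucnr1, Il4ra, Nradd and Kctd12. Among all 32851 promoters 570 did (1.74%), and among all 27025 gene symbols 532 did (1.97%). The windows below are shown for the tuft gene with a match, for the POU2F3 cofactor gene with 2 matches and for the receptor genes Il4ra and Sucnr1 of the type 2 and succinate responses, each on the gene's strand with the octamer or its reverse complement in capitals.
Hpgds, chr6:65144886-65144915, 174 bases before the start: ctttactctttATGCAAATacgttggacta
1810046K07Rik, chr9:51328986-51329015, 86 bases before the start: ctgcattggggATGCAAATtggagagaaac
1810046K07Rik, chr9:51328955-51328984, 55 bases before the start: tacaccagaggATTTGCATttaatcaaatc
Il4ra, chr7:125552121-125552150, 139 bases before the start: tggggtggggcATGCAAATaagccagcgat
Sucnr1, chr3:60081810-60081839, 48 bases before the start: ggctgcataatATGCAAATcagactgcact
A match is a stretch of letters, and binding was not measured. The genes with a match followed the tuft profile, described further on, to unlike degrees. Pearson's r with it was 0.89 for 1810046K07Rik, 0.76 for Sucnr1, 0.69 for Nradd and 0.54 for Hpgds. It was 0.29 for Kctd12, -0.05 for Il4ra and -0.26 for Itpr3. A link between the octamer and the shared variation was not tested.

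Per base of exon, the tuft genes covered a wide span of levels. Level was compared between genes as reads per kilobase of exon per M (RPKM), which depends on the 1 RefSeq transcript counted for each gene. Avil, an actin-bundling protein of the apical tuft, was highest at 5.05 ± 1.34 RPKM, followed by the channel gene Trpm5 at 3.93 ± 1.14 RPKM (SD, n = 16 animals). Alox5 stood at 2.497 ± 0.714, Hpgds at 2.27 ± 0.431, Plcb2 at 2.27 ± 0.588, Dclk1 at 1.97 ± 0.377 and Pou2f3 at 1.43 ± 0.447 RPKM. Gnat3 (0.563 ± 0.316 RPKM) and Il25 (0.195 ± 0.149 RPKM) were the lowest. The order of Avil, Trpm5 and Alox5 was the same in all 16 animals, and Dclk1 exceeded Pou2f3 in all 16. Alox5 and Hpgds (Alox5 higher in 10 animals of 16), Hpgds and Plcb2 (9 of 16) and Plcb2 and Dclk1 (12 of 16) were not separated.

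**Figure D1:**
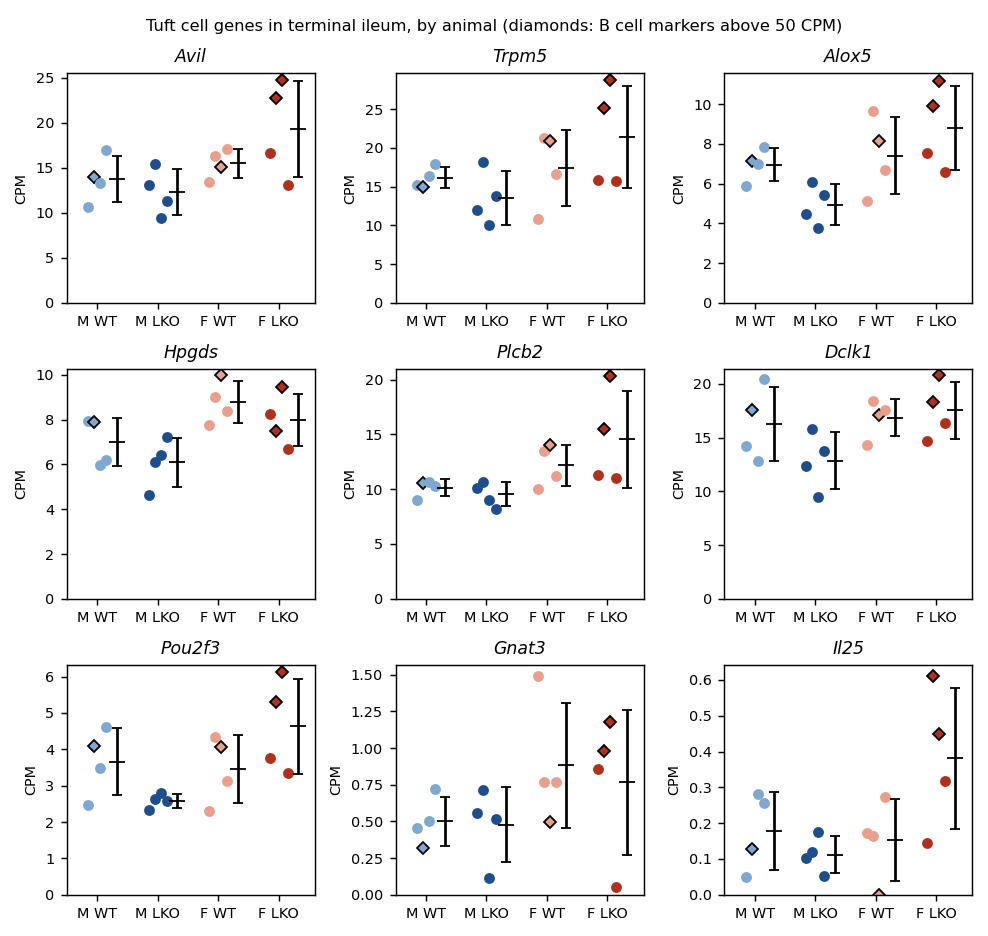
Level of each of the 9 tuft cell genes in CPM (y axis, from 0) in every animal, by group (x axis; M, male; F, female), with the group mean ± SD beside the points (n = 4); diamonds are the 4 libraries with more than 50 CPM of B cell markers. The 2 female LKO diamonds are the highest libraries for Avil, Trpm5, Alox5, Plcb2 and Pou2f3, for example 25.2 and 28.7 CPM of Trpm5, and Gnat3 and Il25 stay below 1.5 CPM.

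Pou2f3 (NM_011139, mm10 chromosome 9, 43123939 to 43205755) encodes the factor without which tuft cells do not form. Its 4 male WT libraries held 2.47, 4.08, 3.48 and 4.62 CPM and the male LKO libraries 2.34, 2.63, 2.81 and 2.59 CPM. The female WT libraries held 2.30, 4.35, 4.06 and 3.13 CPM and the female LKO libraries 3.75, 5.31, 6.12 and 3.35 CPM. Male LKO libraries were all low and close to each other, with 1 male WT library among them, and the female groups overlapped. The log2 fold change of LKO over WT was -0.49 (SE 0.21) in males, with an unadjusted p of 0.0313 and an edgeR adjusted p of 0.893 over all genes, and 0.40 (SE 0.24, adjusted p 0.519) in females.

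The taste-like cascade was represented by Gnat3 (gustducin, the G protein subunit), Plcb2 (the phospholipase that makes the calcium-releasing messenger) and Trpm5. Trpm5 (NM_020277, chromosome 7, 143071529 to 143094642) stood at 15.2, 14.99, 16.4 and 17.97 CPM in male WT and at 12.01, 18.2, 10.1 and 13.8 CPM in male LKO. In females it stood at 10.8, 21.3, 20.9 and 16.7 CPM in WT and at 15.9, 25.2, 28.7 and 15.8 CPM in LKO. Male WT libraries were tightly grouped and the other 3 groups were spread, so that the genotypes overlapped in both sexes. LKO against WT, Trpm5 had a log2 fold change of -0.25 in males (SE 0.15, edgeR adjusted p 0.9995) and of 0.28 in females (SE 0.28, adjusted p 0.712).

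Plcb2 (NM_177568, chromosome 2, 118707517 to 118728438) stood at 8.99, 10.6, 10.6 and 10.3 CPM in male WT, at 10.1, 10.7, 9.06 and 8.23 CPM in male LKO, at 10.1, 13.4, 14.1 and 11.2 CPM in female WT and at 11.3, 15.5, 20.3 and 11 CPM in female LKO. The 8 male libraries stayed at or below 10.7 CPM, and 7 of the 8 female libraries lay above that value. Within a sex its genotypes overlapped, with log2 fold changes of -0.08 in males (SE 0.12, edgeR adjusted p 0.9995) and 0.24 in females (SE 0.20, edgeR adjusted p 0.648). Gnat3 (NM_001081143, chromosome 5, 17962570 to 18019668) was close to the limit of detection. It had 9, 5, 9 and 14 counts in male WT, 11, 12, 2 and 10 in male LKO, 26, 14, 9 and 14 in female WT, and 53, 16, 21 and 1 in female LKO, where the 53 belong to the deepest library and equal 0.856 CPM. It missed the filter on low counts in males, and in females its log2 fold change was -0.18 (SE 0.55, edgeR adjusted p 0.917).

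Alox5 and Hpgds make lipid mediators: 5-lipoxygenase starts leukotriene synthesis, and Hpgds is the hematopoietic prostaglandin D synthase. Both are also used by immune cells. Alox5 (NM_009662, chromosome 6, 116410071 to 116461178) stood at 5.86, 7.14, 6.97 and 7.85 CPM in male WT and at 4.48, 6.10, 3.74 and 5.43 CPM in male LKO, with 1 LKO library above the lowest WT library. In females it stood at 5.11, 9.64, 8.12 and 6.69 CPM in WT and at 7.53, 9.89, 11.2 and 6.59 CPM in LKO, and the groups overlapped widely. In males the log2 fold change reached -0.49 (SE 0.17), with the smallest unadjusted p of the tuft genes there (0.0105, edgeR adjusted p 0.678), and in females it was 0.24 (SE 0.21, adjusted p 0.661).

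Hpgds (NM_019455, chromosome 6, 65117293 to 65144730), the gene whose promoter holds the octamer shown above, stood at 7.93, 7.91, 5.96 and 6.21 CPM in male WT and at 4.63, 6.10, 6.43 and 7.25 CPM in male LKO. In females it stood at 7.75, 9.03, 9.99 and 8.39 CPM in WT and at 8.27, 7.51, 9.44 and 6.70 CPM in LKO. Its highest library was at 2.16 times the lowest, the narrowest span of the 9 genes, and its genotypes overlapped in both sexes. The log2 difference between LKO and WT was -0.19 in males (SE 0.17, edgeR adjusted p 0.9995) and -0.14 in females (SE 0.13, edgeR adjusted p 0.694).

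Dclk1 (NM_001357469, chromosome 3, 55242364 to 55539068), a microtubule-associated kinase used as the standard tuft marker and also expressed in neurons, stood at 14.2, 17.6, 12.8 and 20.4 CPM in male WT and at 12.3, 15.8, 9.47 and 13.8 CPM in male LKO. In females it stood at 14.4, 18.4, 17.1 and 17.6 CPM in WT and at 14.7, 18.3, 20.8 and 16.4 CPM in LKO. Avil (NM_009635, chromosome 10, 127000709 to 127020994) stood at 10.7, 14.0, 13.3 and 16.9 CPM in male WT, at 13.0, 15.4, 9.41 and 11.3 CPM in male LKO, at 13.4, 16.4, 15.03 and 17.1 CPM in female WT and at 16.7, 22.7, 24.7 and 13.1 CPM in female LKO. The groups overlapped for both genes. For LKO over WT, Dclk1 was at -0.33 (SE 0.17) and Avil at -0.15 (SE 0.16) on the log2 scale in males, and at 0.05 (SE 0.12) and 0.31 (SE 0.18) in females, and no edgeR adjusted p of the pair was below 0.519.

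Il25 (NM_080729, chromosome 14, 54932695 to 54935836), the cytokine that tuft cells release, missed the filter on low counts and has no test here. It had 1, 2, 5 and 5 counts in male WT, 2, 2, 3 and 1 in male LKO, 3, 3, 0 and 5 in female WT and 9, 10, 8 and 6 in female LKO. The female LKO libraries had the highest counts, which equal 0.145, 0.611, 0.450 and 0.319 CPM and overlap with those of the other groups. The 0 of female WT replicate 3 allows up to 0.164 CPM. No annotated gene overlapped any of the 9 tuft genes.

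Set against all genes, 0 tuft genes were called between the genotypes in either sex. In males 0 of the 7 tested passed by edgeR (2 at an unadjusted p under 0.05, Alox5 and Pou2f3, and 0 by DESeq2). Over 15169 genes 0.0527% were called, 5.29% had an unadjusted p under 0.05 and DESeq2 called 0.415%. All 7 log2 fold changes were below 0, as were 50.8% of all genes, and their median was -0.25. In females 0 of 8 passed (0 at an unadjusted p under 0.05, and 0 by DESeq2, which gave no adjusted p to Pou2f3 and Gnat3), where over 15298 genes the same rules gave 0.0392%, 11.7% and 1.01%. Here 6 of 8 were above 0, as were 51.8% of all genes, and the median was 0.24. Without the B-cell-rich libraries (female WT replicate 3 and female LKO replicates 2 and 3) the female median was -0.05 with 0 called, and without male WT replicate 2 the male median was -0.25.

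Averaged over both sexes, with sex as a covariate, 0 of 8 tuft genes passed (0 at an unadjusted p under 0.05 and 0 by DESeq2, again with no adjusted p for Pou2f3 and Gnat3) against 0.269%, 11.2% and 1.44% of 15598 genes, and the log2 fold changes lay between -0.17 for Hpgds and 0.08 for Avil. The difference between the male and the female genotype effect, tested as an interaction over all 16 libraries, was below 0 for 7 of the 8, with a median of -0.43, where 51.2% of all genes were below 0. None of the 8 passed, and 0 of 15598 genes passed by edgeR or by DESeq2 (background 0%). At an unadjusted p under 0.05 there were 2 tuft genes, Pou2f3 at -0.90 (SE 0.33, p 0.0123) and Alox5 at -0.73 (SE 0.28, p 0.0167), both with an edgeR adjusted p of 0.845, and 879 genes in all (5.64%). Without the 4 B-cell-rich libraries the median interaction was -0.14. The sexes were therefore not shown to differ in the genotype effect on these genes.

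**Figure D2:**
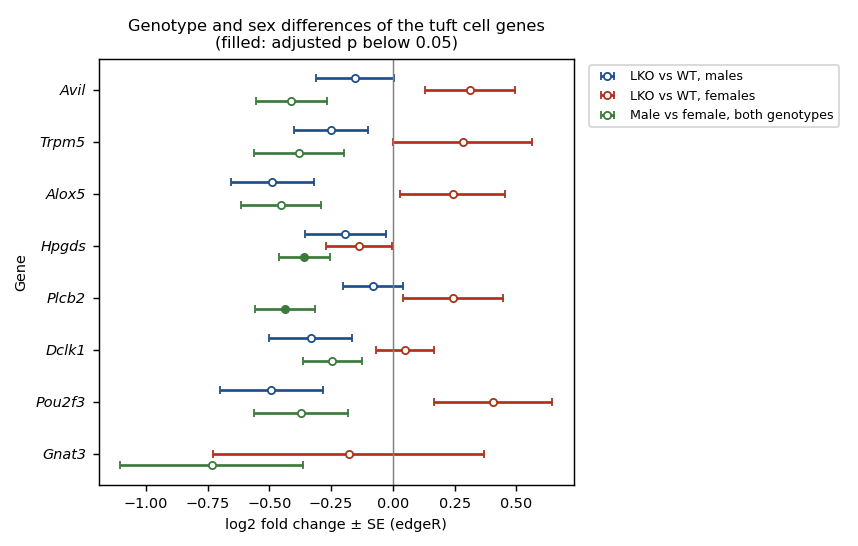
The log2 fold change ± SE (x axis) of each tuft cell gene (y axis) for LKO over WT in males (blue) and females (red) and for male over female in both genotypes (green); filled points passed the edgeR test at an adjusted p of 0.05. All blue points lie below 0, red points lie between -0.18 and 0.40, and the filled points are the sex differences of Plcb2 (-0.44) and Hpgds (-0.36).

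Sex was the comparison in which tuft genes were called. These fits reuse the same animals as the genotype comparisons. All 8 tested had a log2 fold change of male over female below 0, as had 50.2% of all genes, with a median of -0.40, and 2 of the 8 passed as lower in males. They were Plcb2 at -0.44 (SE 0.12, edgeR adjusted p 0.0290) and Hpgds at -0.36 (SE 0.10, edgeR adjusted p 0.0320). Over all genes 11% passed in either direction and 5.44% in the direction of lower in males, 848 genes against 875 higher. With upper-quartile scaling the split of all calls was 424 higher and 1197 lower, and the same 2 tuft genes passed.

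The other 6 did not pass: -0.41 (SE 0.14, edgeR adjusted p 0.0700) for Avil, -0.45 (SE 0.16, 0.0750) for Alox5, -0.38 (SE 0.18, 0.175) for Trpm5, -0.25 (SE 0.12, 0.176) for Dclk1, -0.73 (SE 0.37, 0.191) for Gnat3 and -0.37 (SE 0.19, 0.196) for Pou2f3. With DESeq2 4 passed, Avil and Alox5 in addition (DESeq2 adjusted p 0.0275 and 0.0389), where 7.53% of all genes passed as lower in males. The sexes overlapped for every tuft gene. Hpgds ranged from 4.63 to 7.93 CPM in males (median 6.32) and from 6.70 to 9.99 CPM in females (median 8.33), and Plcb2 from 8.23 to 10.7 CPM (median 10.2) against 10.1 to 20.3 CPM (median 12.4).

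The 2 sex calls, Plcb2 and Hpgds, were near the threshold. Without the 4 B-cell-rich libraries neither passed: Plcb2 was at -0.23 (edgeR adjusted p 0.161) and Hpgds at -0.32 (adjusted p 0.113). With the running number of the sample titles as a linear covariate 0 tuft genes passed. The count was also 0 without male LKO replicate 1, male LKO replicate 3 or female WT replicate 2, and it was 1 when male WT replicate 1 or 3, male LKO replicate 4 or female LKO replicate 1 or 3 was left out. Leaving out female LKO replicate 4 raised it to 4. Over 25 alternatives the adjusted p ranged from 0.00884 to 0.161 for Plcb2 (19 passed) and from 0.0121 to 0.113 for Hpgds (17 passed), and both stayed below 0 in every one. The fit with the title number, in which neither passed, and the newer edgeR method are not among these 25.

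Markers of other tissue layers also differed by sex. All 6 smooth muscle markers had log2 fold changes below 0 in males with a median of -0.38, and 5 passed: Acta2 (-0.38), Tagln (-0.36), Des (-0.45), Cnn1 (-0.39) and Myh11 (-0.30). Their summed level was between 2766 and 3597 CPM in males and between 3523 and 5421 CPM in females. Of 8 enteric neuron markers, 3 passed as lower in males, among them Uchl1 (-0.37) and Tubb3 (-0.47). The epithelial markers Krt20 (0.32), Epcam (0.14) and Vil1 (0.16), 3 of 9, passed as higher in males. So did the neurotensin gene Nts (0.23), 1 of 9 enteroendocrine markers, and in each of these lists 8 of 9 were above 0. Among 9 markers of macrophages and other myeloid cells 1 passed, the complement gene C1qb, which was lower in males (-0.20). Of these 9 markers 7 were below 0 and 2 above. Of the B cell, mast cell and eosinophil markers 0 passed by edgeR, and the 7 B cell markers had a median of -1.79. Without the 4 B-cell-rich libraries Acta2, Tagln, Uchl1, Tubb3, C1qb, Krt20 and Vil1 passed in the same direction, while Des, Cnn1, Myh11, Nts and Epcam had edgeR adjusted p from 0.0535 to 0.195. Every one of the listed markers had counts in some library, and the part of these layers in the sex difference of the tuft genes was not tested.

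The tuft genes were high or low together in an animal. A tuft profile was computed for each animal as the mean, over the 8 genes that passed the filter, of log2 CPM standardised over the 16 libraries. The summed level of these 8 genes ran from 51.1 CPM in male LKO replicate 3 to 122.5 CPM in female LKO replicate 3. The profile was -0.13 ± 0.40 in male WT, -0.85 ± 0.56 in male LKO, 0.31 ± 0.54 in female WT and 0.67 ± 0.97 in female LKO (SD, n = 4 each). The place of female LKO as the highest group mean rested on its B-cell-rich replicates 2 and 3. Its replicates 1 and 4 were at 0.24 and -0.44, and the female WT replicates 1, 2 and 4, not B-cell-rich, at -0.42, 0.80 and 0.25. The highest animals were female LKO replicates 3 (1.76) and 2 (1.14), and the lowest were male LKO replicates 3 (-1.51) and 1 (-1.03). Of the 8 animals above the median, 6 were female.

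**Figure D3:**
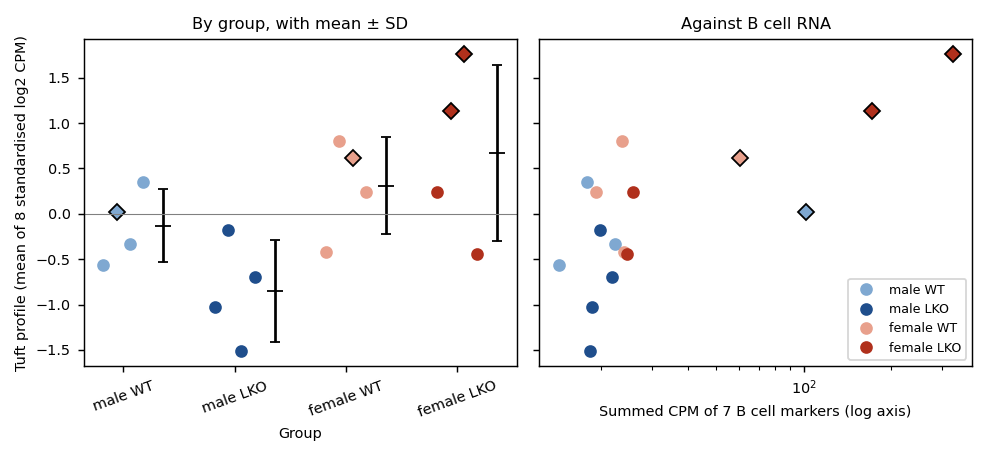
Tuft profile of each animal (y axis, mean of 8 standardised log2 CPM values) by group with mean ± SD, n = 4 (left), and against the summed CPM of 7 B cell markers on a log axis (right); diamonds are the 4 libraries above 50 CPM of B cell markers. The female LKO group runs from -0.44 to 1.76, and its 2 highest animals are the 2 libraries with the most B cell RNA.

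Each of 6 tuft genes followed the mean of the others closely over the 16 libraries. Pearson's r, given as a description of libraries that share groups and preparation, was 0.95 for Alox5, 0.90 for Avil, 0.90 for Trpm5, 0.86 for Plcb2, 0.82 for Dclk1 and 0.81 for Pou2f3, with Spearman's rho between 0.78 and 0.93. Hpgds (r 0.54, rho 0.55) and Gnat3 (r 0.44, rho 0.46) followed less closely, Gnat3 at counts as low as 1. The median r of the 8 was 0.84, 0.78 after group means were subtracted, 0.81 without the 2 libraries farthest from the median profile (female LKO replicate 3 and male LKO replicate 3) and 0.76 in the 12 libraries that were not B-cell-rich. The profile had r -0.02 and rho -0.41 with the library total.

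Among the 28 pairs of tuft genes the closest was Trpm5 and Alox5, with r 0.94 and rho 0.89. The permutation p was 1e-05 for r, the smallest that 100000 resamples can give, and 0.00014 after Benjamini-Hochberg adjustment over the 28 pairs, and r was 0.90 in males, 0.97 in females and 0.89 without the 2 farthest libraries. The 15 pairs that involve neither Gnat3 nor Hpgds had r from 0.65 to 0.94, and all 15 had an adjusted permutation p under 0.05 for r and for rho. Of the 6 pairs of Hpgds with these genes 1 did (with Alox5), and of the 7 pairs of Gnat3 1 did (with Avil). Libraries were permuted without regard to group, so differences between groups that 2 genes share also count in these p-values. With group means subtracted, r was 0.53 to 0.95 for the 15 pairs. It was then 0.35 for Hpgds with Alox5 and 0.69 for Gnat3 with Avil, and these values were not tested.

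**Figure D4:**
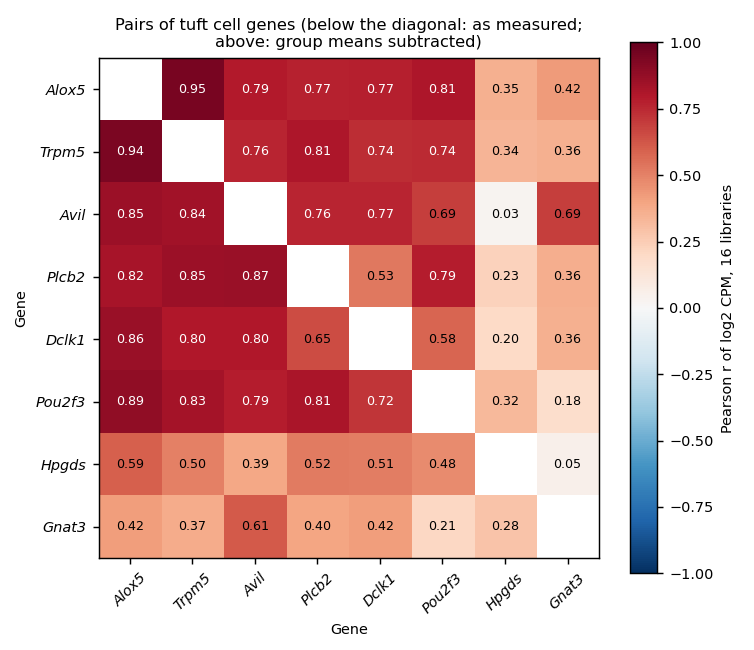
Pearson's r between pairs of 8 tuft cell genes over 16 libraries (log2 CPM), as measured below the diagonal and with group means subtracted above it; the colour scale runs from -1 to 1. The block of 6 genes from Alox5 to Pou2f3 has r from 0.65 to 0.94 below the diagonal, and the rows of Hpgds and Gnat3 are paler.

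Genes outside the 10 with the most similar profile were then listed, by the highest r to the tuft profile among genes averaging 1 CPM or more. The closest was Sh2d7 (NM_173778, chromosome 9, 54538984 to 54545020), which encodes an SH2-domain protein, with r 0.97 and rho 0.97, and r 0.96 after group means were subtracted. It was followed by Siglecf (r 0.93), a sialic acid-binding lectin of eosinophils and tuft cells, the tyrosine kinase gene Matk (0.93), and, among the rest of the 10 closest, Dennd4b (0.91), Cul9 (0.91), Strip2 (0.90), the phospholipase gene Pla2g4c (0.89), Lrmp (0.89) and 1810046K07Rik (0.89), a POU2F3 cofactor gene. Of the 10 closest, 6 belong to the wider tuft lists. Siglecf reached 14.2 CPM in female LKO replicate 3 against 3.47 to 9.34 CPM in the other 15 libraries, and the summed level of 4 eosinophil markers lay between 1.52 and 5.17 CPM.

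The wider tuft lists hold 37 genes in 5 roles (transcription factors, taste signalling, eicosanoid synthesis, type 2 circuit, and signalling and structure), of which 34 were tested over all 16 libraries. Their median r with the tuft profile was 0.70, and 12 of 34 (35.3%) exceeded 0.8, compared with 0.757% of the 15590 genes tested outside the 10. Over all 16 libraries 58.8% exceeded 0.5, compared with 14.3% of the other genes. In the 12 libraries that were not B-cell-rich the median was 0.57, and 58.8% exceeded 0.5, compared with 11.8% of the other genes. The genes at the other end were Il13ra1 (r -0.64), a receptor subunit for IL-13, the taste receptor gene Tas1r3 (-0.55) and the phospholipase gene Pla2g4a (-0.50). In the 12 libraries that were not B-cell-rich these were at -0.55, -0.64 and -0.02 in the same order, so that the place of Pla2g4a rested on the 4 libraries left out.

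**Figure D5:**
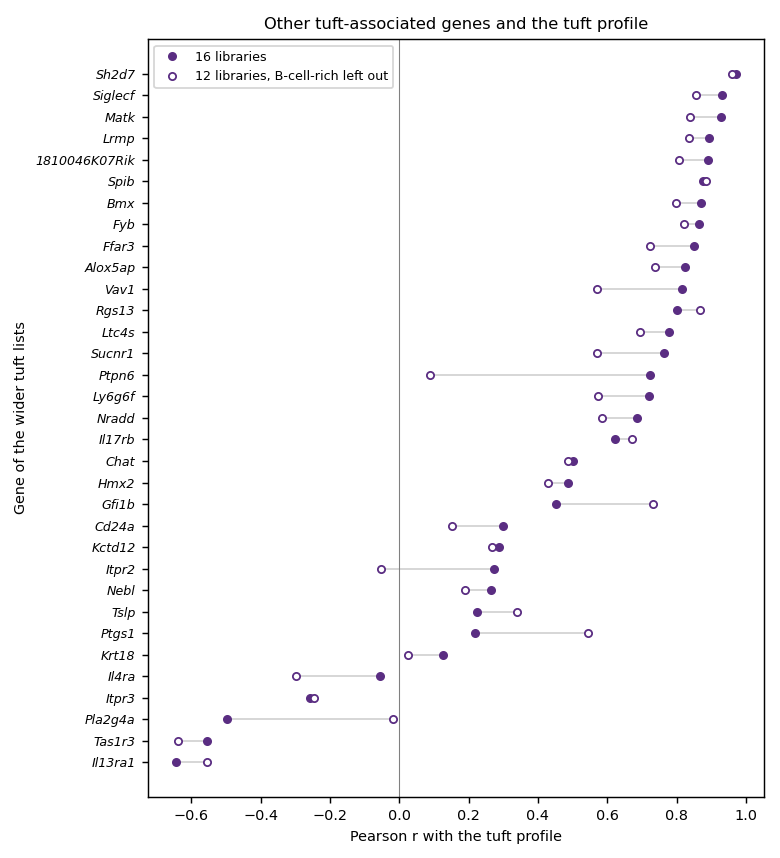
Pearson's r with the tuft profile (x axis) for 33 of the tested genes of the wider tuft lists (y axis), over 16 libraries (filled) and over the 12 libraries with less than 50 CPM of B cell markers (open). The upper 11 genes exceed 0.8 with all libraries, Ptpn6 drops most when the 4 libraries are left out, and Il13ra1 and Tas1r3 stay below -0.5.

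In the genotype comparisons the wider lists gave 1 call, over both sexes, where 0.269% of all genes passed. Il4ra, the receptor subunit through which IL-4 and IL-13 act, was higher in LKO over both sexes by 0.25 on the log2 scale (SE 0.049, edgeR adjusted p 0.0321). Without the 4 B-cell-rich libraries it was at 0.24 (SE 0.061) and did not pass (adjusted p 0.249). It stood between 127.1 and 146.6 CPM in male WT and between 155.3 and 175.2 CPM in male LKO, and between 116.7 and 149.4 CPM in female WT and between 158.4 and 164.4 CPM in female LKO, so that the genotypes did not overlap in either sex (1.66% of genes were without overlap and higher in LKO in males, and 3.04% in females). Il4ra is expressed by many cell types, and its r with the tuft profile was -0.05, and -0.30 in the 12 libraries that were not B-cell-rich. Within males 0 of 32 wider tuft genes passed by edgeR (7 at an unadjusted p under 0.05, where all genes gave 5.29%, and 1, Il4ra, by DESeq2 at adjusted p 0.0475, where all genes gave 0.415%), and within females 0 of 34 (2 at an unadjusted p under 0.05, where all genes gave 11.7%, and 0 by DESeq2). In females DESeq2 gave no adjusted p to many of the 34, among them Sucnr1, Ltc4s, Hmx2, Chat, Il17rb and 1810046K07Rik, so these could not be called. The smallest p-values after Il4ra belonged in males to Cd24a (0.23, edgeR adjusted p 0.508) and Il13ra1 (0.22, 0.684), in females to Krt18 (0.20, 0.398) and Alox5ap (0.34, 0.440), and over both sexes to Itpr2 (-0.23, 0.287) and Cd24a (0.12, 0.446). The interaction called 0 of 34 (3 at an unadjusted p under 0.05, where all genes gave 5.64%, and 0 by DESeq2), with Spib, a factor of tuft cells and of B cells, at -2.01 (SE 0.83) and Il13ra1 at 0.32, both with an edgeR adjusted p of 0.845.

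By sex, 28 of the 34 wider tuft genes had log2 fold changes below 0 in males, with a median of -0.33. Of these 3 passed as lower in males and 0 as higher (17 lower and 1 higher at an unadjusted p under 0.05, where all genes gave 14.8% and 14.5%, and 9 lower and 1 higher by DESeq2, where all genes gave 7.53% and 7.87%). They were Fyb, an adaptor of immune receptor signalling (-0.34, SE 0.076, edgeR adjusted p 0.0108), 1810046K07Rik (-0.89, SE 0.22, 0.0182) and Alox5ap, the partner protein of 5-lipoxygenase (-0.47, SE 0.14, 0.0388). Without the B-cell-rich libraries 1 of the 3 passed, Fyb at -0.25 (adjusted p 0.0485), while 1810046K07Rik was at -0.64 (0.102) and Alox5ap at -0.38 (0.174). Alox5ap averaged 4.39 ± 0.636 CPM in male WT, 4.57 ± 1.56 CPM in male LKO, 5.51 ± 0.814 CPM in female WT and 6.99 ± 1.29 CPM in female LKO (SD, n = 4 each). 1810046K07Rik, whose promoter has 2 octamer matches, averaged 1.34 ± 0.230, 1.27 ± 0.334, 2.25 ± 0.821 and 2.66 ± 1.20 CPM in the same order.

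Among the type 2 response genes, 5 of 8 were measurable. Ang4, an antimicrobial ribonuclease of Paneth and goblet cells induced by IL-13, was lower in males (log2 fold change -0.84, SE 0.18, edgeR adjusted p 0.0134), and without the B-cell-rich libraries it was at -0.66 (adjusted p 0.128). It averaged 505.4 ± 56.2 CPM in male WT, 687.3 ± 143.2 CPM in male LKO, 954.3 ± 363.1 CPM in female WT and 1171 ± 254.8 CPM in female LKO (SD, n = 4 each). The genotype comparisons called 0 of these genes, and Il13 itself averaged at most 0.130 CPM in a group. The summed level of the 8 genes had r 0.71 and rho 0.58 with the tuft profile, and r 0.57 without the 4 B-cell-rich libraries. Most of that sum was Ang4, since all 8 genes together averaged 560.1 CPM in male WT, 748.0 CPM in male LKO, 1006 CPM in female WT and 1233 CPM in female LKO. Taken singly, r was 0.71 for Ang4, 0.54 for Gata3, 0.35 for Retnlb, 0.25 for Il33 and -0.42 for Il1rl1. The log2 fold changes of male over female of these 5 genes ran from -0.84 to 0.30, with a median of -0.34.

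The summed markers of other cell types were set beside the tuft profile in the same way. Smooth muscle had r 0.75 and rho 0.57, eosinophils r 0.74 and rho 0.60, enteric neurons r 0.49 and rho 0.40, macrophages and other myeloid cells r 0.40 and rho 0.26, mast cells r 0.02 and rho 0.16, epithelium r -0.39 and rho -0.40, and enteroendocrine cells r -0.52 and rho -0.45. The B cell markers had r 0.73 and rho 0.59 over all 16 libraries. With group means subtracted, r was 0.52 for smooth muscle, 0.71 for eosinophils, 0.13 for enteric neurons and 0.08 for macrophages and other myeloid cells. It was then 0.06 for mast cells, 0.03 for epithelium, -0.57 for enteroendocrine cells and 0.68 for B cells. In the 12 libraries that were not B-cell-rich r was 0.71 for smooth muscle, 0.68 for enteric neurons, 0.42 for eosinophils, 0.26 for macrophages and other myeloid cells, 0.10 for mast cells, -0.52 for epithelium, -0.12 for enteroendocrine cells and 0.34 for B cells, whose level falls into separate clusters over all 16. Of the enteroendocrine genes, Chgb, a secretory granule protein, was lower in LKO over both sexes (-0.30, edgeR adjusted p 0.0458, and -0.31 with an adjusted p of 0.200 without the B-cell-rich libraries). What these markers contribute to the tuft profile was not tested.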

How the data were processed

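Stranded poly(A) libraries of 16 ilea were sequenced by the authors as 100 bp single-end reads, aligned to mm10 with STAR 2.5.2 (1 mapping position, at most 4 mismatches) and counted per gene with HOMER 4.10. The deposited values are raw read counts over the exons of 1 RefSeq transcript per gene. The strand setting was not given in the sources used here. The authors tested with DESeq2. Groups came from the sample titles, and p-values measure the spread between these animals.

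All genes were tested in R 4.3.3 with the robust quasi-likelihood F-test of edgeR 4.0.16 (TMM scaling, filterByExpr by group, Benjamini-Hochberg adjustment over all genes tested, threshold 0.05). A standard error is the size of the log2 fold change divided by the square root of F. Log2 CPM for the profile used a prior count of 2. Alternatives were DESeq2 1.42.0, RLE and upper-quartile scaling, other filters, the non-robust fit, thinning of the deepest library to 18.1 M, a replicate block, the title number as covariate and each library left out. The newer edgeR method and leaving out B-cell-rich libraries were added after seeing the data. The edgeR fit was tested on simulated data, with no recovery threshold set for the interaction.

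The 10 tuft genes and all marker lists were chosen with earlier results of these data known. Beside them, list genes past the threshold, the 3 smallest p-values of the wider tuft lists in each fit, the 10 genes closest to the profile and Bcl6 were named by rule. Other names, such as Siglecf levels, Tas1r3 and Ptpn6, were chosen after their values were seen. Within each group, libraries differed beyond counting noise (chi-square per degree of freedom 8.84 to 29.4 over 24 pairs). Some genes of the named-gene rule and the lists are not reported here.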

Additional observations from a re-analysis of the deposited data

How the results depend on the processing

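No alternative called a tuft gene for genotype or for the interaction. By sex, the 2 calls became 4 with DESeq2, 0 without the B-cell-rich libraries and 0 with the title number as covariate, and ranged from 0 to 4 when single libraries were left out. Without the B-cell-rich libraries the median log2 fold change moved to -0.054 in females and to -0.14 for the interaction. Female values then turned to -0.053 for Avil, -0.040 for Trpm5, -0.0086 for Alox5, -0.12 for Dclk1 and -0.054 for Plcb2. Values over both sexes turned to -0.11 for Avil, -0.18 for Trpm5 and -0.062 for Plcb2, and the interaction of Hpgds to 0.013. The cause was not tested.

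With single libraries left out, values that were not called changed sign in females for Gnat3 (-0.39 to 0.19) and Dclk1 (-0.0447 to 0.13). Over both sexes they did so for Gnat3 (-0.26 to 0.0669), Avil (-0.0031 to 0.15), Trpm5 (-0.0856 to 0.0924), Pou2f3 (-0.14 to 0.0653) and Plcb2 (-0.0308 to 0.13), and in the interaction for Hpgds (-0.16 to 0.0543) and Gnat3 (-0.26 to 0.41). Same-numbered animals were compared in their deviations: r exceeded 0.1 in 2 of 4 pairs of female WT and LKO (highest 0.26) and in 0 of 4 pairs in each of the other 3 pairings of groups. With 4 pairs each, this cannot decide whether the numbers pair the animals. With the replicate number as a block 0 tuft genes passed for genotype or interaction and 2 by sex (Plcb2 and Hpgds). With 4 animals a group and Gnat3 and Il25 near the detection limit, changes in these 2 genes could not be resolved.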
